A study of Mus musculus with 4 samples.

Results

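The genes described here encode subunits of the respiratory chain and ATP synthase in MC38 cells, a mouse colon adenocarcinoma line, after irradiation and without it. Protein-coding genes were taken by symbol (Nduf, Sdh, Uqcr, Cyc1, Cox and Atp5 subunits, and the mt-Nd, mt-Cytb, mt-Co and mt-Atp genes of the mitochondrial genome). The rule found 97 genes in the annotation. Of these, 93 of the 26561 genes in the count table were members, 80 encoded in the nucleus and 13 in the mitochondrial genome, and the other 4 annotated genes (Cox7b2, Cox8b, Cox8c and a second entry named Atp5o) were not analysed here. A filter on low counts left 90 members to be tested, including all 13 mitochondrial ones. The members that missed it were Cox6a2, Cox6b2 and Ndufa4l2. Irradiated cells were wild-type MC38 given 30 Gy of X-rays in a single fraction and taken 60 h later (2 libraries). Unirradiated cells were wild-type MC38 without that dose (2 libraries), and since the sources used here give no harvest time for them, time in culture and density cannot be told apart from irradiation.

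Electrons from NADH enter the chain at complex I and those from succinate at complex II. Coenzyme Q passes them to complex III, cytochrome c carries them to complex IV, and the protons pumped along the way drive ATP synthase, complex V. Complex II is encoded wholly in the nucleus, whereas the other complexes combine nuclear subunits, made in the cytosol and imported, with a few hydrophobic subunits made inside the mitochondrion. The mitochondrial genes are transcribed as long precursors that are cut into single messages, so their levels depend on RNA stability and processing as well as on transcription.

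Total counts were between 26059171 and 29180110 in irradiated and between 27995608 and 29881492 in unirradiated libraries. The labels do not say whether replicates were grown separately, so each p-value reflects variation among these 4 libraries that could be purely technical. Levels are CPM, the count divided by the library size in units of 1e+06 after scaling by TMM (a factor that offsets differences in composition). They are shares of a library, so neither the number of cells nor the RNA per cell can be read from them. A lower share of some genes cannot be told apart from a general rise of the others. Of the 3 epithelial markers tested 2 rose, Cdh1 and Krt8, and the list summed to 69.9 to 75.9 CPM in irradiated and 36.5 to 38.4 CPM in unirradiated libraries. Krt8 had 30 and 20 counts in irradiated and 6 and 3 in unirradiated libraries, and Krt19, which did not pass, had 46 and 31 in irradiated and 50 and 53 in unirradiated ones. Of the defining markers, Epcam and Krt18 had at most 3 counts in any library, against 1798 to 2173 counts of Cdh1 in irradiated and 998 to 1009 in unirradiated libraries, so that, of these markers of the labelled epithelial type, Epcam and Krt18 are at or near 0. All 6 fibroblast markers tested rose, with a summed level of 1779 to 1797 CPM in irradiated and 1200 to 1205 CPM in unirradiated libraries. Of the 2 leukocyte markers tested 1 rose, Cd68, and the list summed to 32.6 to 38.5 CPM in irradiated and 4.04 to 5.02 CPM in unirradiated libraries, while Cd3e, Adgre1 and Csf1r had at most 2 counts in any library. Both endothelial markers tested rose, Pecam1 and Tek. The list summed to 6.21 to 6.55 CPM in irradiated and 1.92 to 2.58 CPM in unirradiated libraries. Most of that sum was Pecam1, with a mean of 5.17 CPM in irradiated and 1.95 CPM in unirradiated libraries. Tek had 25 and 23 counts in irradiated and 0 and 4 in unirradiated libraries. The untested Cdh5 had 12 and 3 against 8 and 5 counts, and Kdr had 3 in each irradiated and 0 in each unirradiated library. Whether these shifts play a part in the results below was not tested.

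Most nuclear respiratory genes were lower after irradiation, while mitochondrial ones went in both directions. Of 77 tested nuclear members, 54 fell, 3 rose and 20 did not pass (edgeR's quasi-likelihood test, adjusted p under 0.05), with a median log2 fold change of -0.36. Of the 13 mitochondrial genes, 7 rose and 2 fell, with a median of 0.24 (0.14 without irradiated replicate 2). That median is the value of mt-Atp6, which did not pass. Over all 15298 genes tested, 30.3% fell and 30.4% rose, with a median of 0.01, so 60.7% changed in one direction or the other. Both irradiated libraries lay below both unirradiated ones in 62 nuclear members and above them in 6, against 38.7% and 39.7% of all genes tested. Most nuclear members are well expressed, and well-expressed genes fell more often. Among genes with a mean of 20 to 1000 CPM, 45.2% fell and 29.6% rose, against 71.8% and 2.82% of the 71 nuclear members in that range. Of the 75 genes with a mean over 1000 CPM, 50.7% rose. These 75 include 6 of the 13 mitochondrial genes, of which mt-Co1, mt-Nd4, mt-Nd5 and mt-Cytb rose and mt-Nd1 and mt-Nd2 fell. The 53.8% of all 13 mitochondrial genes that rose also covers genes at lower levels. The 2 shares are therefore not like for like, and no excess over background is claimed. Counting exons only, 52 nuclear members share no bases with another annotated gene, and of the 51 tested among them 38 fell and 3 rose.

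**Figure D1:**
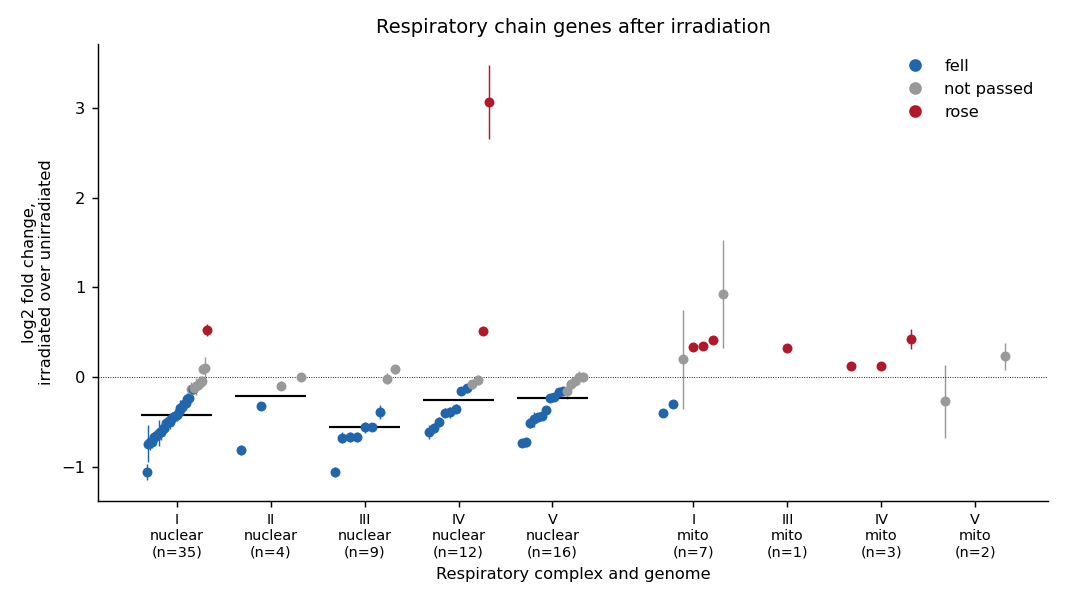
Log2 fold change (irradiated over unirradiated) of each tested member, by complex and by the genome that encodes it, with its standard error and with black lines at the median of nuclear members. Nuclear members lie mostly below 0, with a median of -0.56 in complex III, and Cox7a1 stands alone at 3.07 in complex IV.

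Summed over genes, nuclear members held 0.650% and 0.643% of the counts of the irradiated libraries and 0.792% and 0.794% of the unirradiated ones. The mitochondrial genes held 2.43% and 2.38% in irradiated and 2.11% and 2.19% in unirradiated libraries. Their ratio, mitochondrial over nuclear counts, was therefore 3.74 and 3.70 in irradiated cells and 2.66 and 2.76 in unirradiated cells. The groups do not overlap in any of these measures, and the exact two-sided permutation p of 0.333 is the smallest that 2 against 2 libraries allow. Mt-Co1 alone made up 47.0% and 46.7% of the mitochondrial counts after irradiation and 46.1% in each unirradiated library. All these mitochondrial sums rest mainly on the 8 genes with a mean of at least 100 CPM. The other 5 held few counts, as given below, and the handling of reads that match several places is unstated. The shares and the ratio carry that uncertainty.

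Complex I, the NADH dehydrogenase, has the most members. Of its 35 nuclear genes 26 fell, 1 rose and 8 did not pass, and their summed level was 1628 and 1593 CPM in irradiated against 2021 and 2049 CPM in unirradiated libraries. Of these, 7 encode the conserved core that carries electrons and binds quinone (a division made after the values were seen), and 6 of those 7 fell. Accessory subunits fell in 20 of 28. The core subunit that did not pass was Ndufs3, with a log2 fold change of -0.06 (SE 0.07).

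Ndufs8 (ENSMUSG00000059734, GRCm38, chromosome 19, 3908863 to 3912774), a core subunit with iron-sulphur clusters near the quinone site, had 19.7 and 21.8 CPM in irradiated cells and 42.2 and 43.5 CPM in unirradiated cells. Its log2 fold change was -1.05 (SE 0.09, edgeR adjusted p = 1.13e-31), the lowest among nuclear complex I genes. Ndufc2, a membrane-arm accessory subunit, had 25.5 and 26.8 CPM with irradiation and 43.4 and 42.5 CPM without (log2 fold change -0.72, adjusted p = 4.76e-17). In each of these the irradiated libraries lie well below the unirradiated ones.

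The subunits that take electrons from NADH fell as well. For Ndufs1, the largest subunit (chromosome 1, 63143596 to 63176833), the levels were 62.3 and 60.8 CPM against 99.3 and 94.3 CPM in unirradiated libraries (log2 fold change -0.65, edgeR adjusted p = 4.19e-31), although 9 bases of its exons overlap Eef1b2, which holds 785% as many counts. Ndufv2, an iron-sulphur protein of the NADH-binding tip, had 69.0 and 67.6 CPM in irradiated and 103 and 113 CPM in unirradiated cells (-0.66, adjusted p = 5.97e-34). Ndufv1, which holds the flavin, fell less (-0.39, adjusted p = 1.16e-12).

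Ndufb2, an accessory subunit, had 4.80 and 3.20 CPM in irradiated cells and 5.42 and 7.95 CPM in unirradiated cells (log2 fold change -0.73, edgeR adjusted p = 0.00108). That call is lost without irradiated replicate 2 (adjusted p = 0.0672) or unirradiated replicate 2 (adjusted p = 0.161), and Braf, which overlaps it on the other strand, holds 1090% as many counts. Ndufv3 (chromosome 17, 31520115 to 31531331), an accessory subunit beside the flavin site, was the nuclear complex I gene that rose. It had 66.5 and 64.2 CPM in irradiated and 45.6 and 45.2 CPM in unirradiated libraries (0.52, SE 0.06, adjusted p = 2.56e-15). Its direction is thus opposite to that of its neighbours Ndufv1 and Ndufv2.

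Complex II, succinate dehydrogenase, had 2 of 4 nuclear members lower and 0 higher. Among all genes with a mean of 20 to 1000 CPM, 45.2% fell. The catalytic pair fell and the membrane anchors did not pass the test, but the difference between these pairs was not tested. Sdhb (ENSMUSG00000009863, chromosome 4, 140961203 to 140979193), the iron-sulphur subunit, had 65.4 and 61.6 CPM in irradiated cells and 111 CPM in each unirradiated library. This is 1.75-fold lower (log2 fold change -0.81, SE 0.05, edgeR adjusted p = 3.28e-49). Sdha, the flavoprotein, had 239 and 246 CPM in irradiated and 311 and 296 CPM in unirradiated libraries (-0.32, SE 0.03, adjusted p = 1.52e-19). The anchor Sdhd stood at 117 CPM in each irradiated library, between the 114 and 119.9 CPM of unirradiated cells (0.01, SE 0.05, adjusted p = 0.937). For Sdhc, the other anchor, the values were 96.0 and 94.3 CPM against 101 CPM in each unirradiated library (-0.09, SE 0.05, adjusted p = 0.117). Within a library the counts of Sdhb over those of Sdhd were 0.558 and 0.525 in irradiated against 0.981 and 0.924 in unirradiated cells. No scaling between libraries can move this ratio. However, Sdhb and Sdhd have the lowest and highest log2 fold change of the complex, so their ratio restates those values and is no separate test.

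Complex III, the cytochrome bc1 complex, had the lowest median of the 5 complexes, -0.56, with 7 of 9 nuclear members lower and 0 higher. Their summed level was 573 and 572 CPM in irradiated and 799.5 and 832 CPM in unirradiated libraries. Cyc1 (ENSMUSG00000022551, chromosome 15, 76343523 to 76346260), which encodes cytochrome c1, the haem protein that hands electrons to cytochrome c, had 61.0 and 60.0 CPM in irradiated cells and 123 and 128 CPM in unirradiated cells. The 2.07-fold fall (log2 fold change -1.05, SE 0.05, edgeR adjusted p = 1.00e-84) put it lowest of all nuclear members tested. Uqcrfs1, the Rieske iron-sulphur protein, had 48.7 and 46.3 CPM with and 78.2 and 73.4 CPM without irradiation (-0.67, adjusted p = 7.30e-27). The large core proteins Uqcrc1 and Uqcrc2 fell too, with log2 fold changes of -0.55 and -0.66. The small subunits that did not pass were the hinge protein Uqcrh (0.09, adjusted p = 0.129) and Uqcr11 (-0.01, adjusted p = 0.867). Cyc1 counts over Uqcrh counts were 0.664 and 0.642 in irradiated and 1.496 and 1.39 in unirradiated libraries. Cyc1 and Uqcrh have the lowest and highest log2 fold change among these nuclear members, so this ratio too is no separate test.

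**Figure D2:**
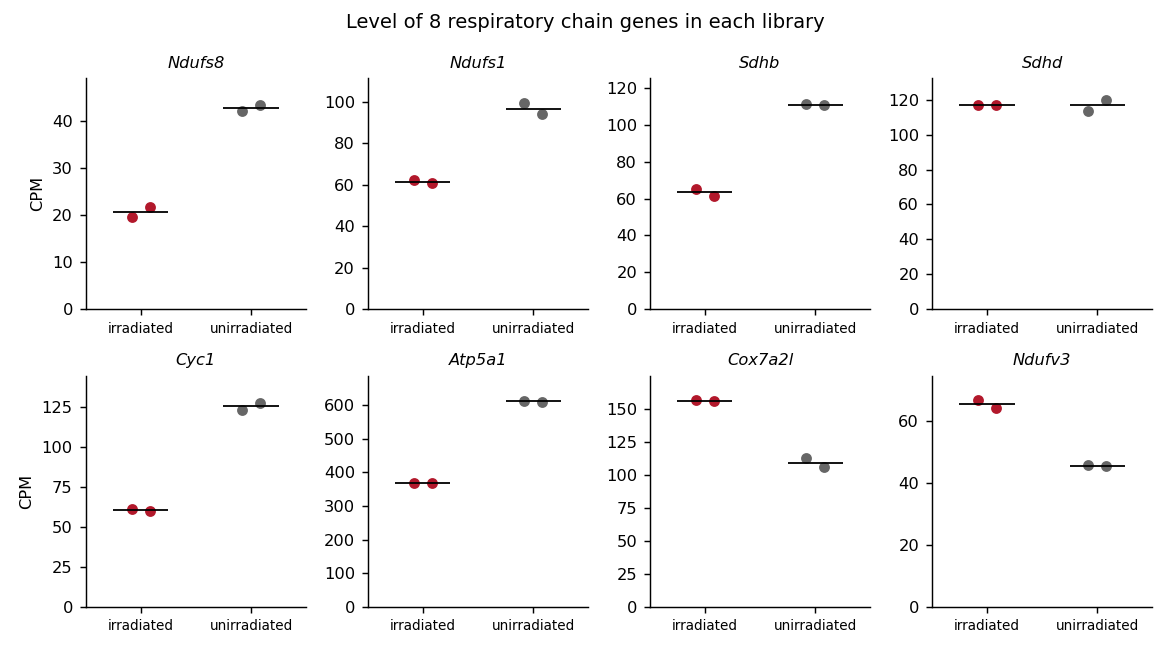
CPM of 8 nuclear members in each library (points) with the group mean (lines), irradiated left and unirradiated right, each axis starting at 0. Cyc1 sits at 61.0 and 60.0 CPM against 123 and 128 CPM, Sdhd overlaps between the groups, and Cox7a2l and Ndufv3 are higher in irradiated cells.

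Complex IV, cytochrome c oxidase, had 8 of 12 tested nuclear members lower and 2 higher, with a median log2 fold change of -0.25. Their summed level was 979 and 983 CPM in irradiated and 1106 and 1104 CPM in unirradiated libraries. These counts, the median and the sum leave out Cox4i1, a subunit whose symbol the naming rule misses. Cox4i1 rose, with 265 and 282 CPM in irradiated against 230.4 and 231 CPM in unirradiated libraries. These levels, though not the size of the rise, are higher than those of any nuclear member counted here for complex IV. The fall in the sum would be smaller with Cox4i1. Ndufa4 is counted here because, despite its symbol, it is known as a subunit of this complex. Cox5a, a subunit on the matrix side, had 30.7 and 34.1 CPM in irradiated and 48.3 and 50.4 CPM in unirradiated cells (-0.61, SE 0.08, edgeR adjusted p = 6.69e-15). Cox7c and Ndufa4 fell as well (-0.56 and -0.49). Cox5b was at the edge of the test, with -0.12 and adjusted p = 0.0277, and is lost by DESeq2 (adjusted p = 0.101), with library totals in place of TMM (0.292) and without unirradiated replicate 2 (0.0964) or irradiated replicate 2 (0.215). Cox6a1 (-0.15, adjusted p = 0.000737) is lost without irradiated replicate 2 (0.0828).

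Paralogs within this complex went different ways. Cox7a2, the common form of subunit 7a, had 51.6 and 53.0 CPM in irradiated and 66.2 and 70.6 CPM in unirradiated cells (log2 fold change -0.39, edgeR adjusted p = 1.33e-09). Cox7a2l (chromosome 17, 83501918 to 83517330), a related protein known for joining complexes III and IV into supercomplexes, had 156 CPM in each irradiated library and 112 and 106 CPM in unirradiated ones (0.51, SE 0.05, adjusted p = 1.73e-28). Cox7a1 (chromosome 7, 30184144 to 30186078), the form known from heart and skeletal muscle, had 101 and 100 counts in irradiated cells and 12 in each unirradiated library. That is 3.39 and 3.77 CPM against 0.437 and 0.411 CPM (3.07, SE 0.41, adjusted p = 4.59e-13). A rise was called in 31.7% of all genes whose mean was under 5 CPM.

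Other muscle and tissue-restricted forms stayed near the floor of detection. Cox6a2, the muscle form of subunit 6a, had 7 and 8 counts in irradiated and 12 and 7 in unirradiated libraries. Cox6b2, the testis form of subunit 6b, had 0 counts in both irradiated libraries and 2 and 0 in unirradiated ones. Ndufa4l2, a paralog of Ndufa4 known to be induced by hypoxia, had 16 and 9 against 4 and 1 counts, and 32 bases of its exons overlap Shmt2, which holds far more counts. Striated muscle markers summed to 1.62 to 1.91 CPM in irradiated and 0.582 to 0.946 CPM in unirradiated cells. Of the 2 tested 1 rose, and their part in the Cox7a1 result was not tested. Of the 6 listed, Ckm was not analysed here, and the other 5 were each under 1 CPM in every library. Outside the naming rule, the ubiquitous subunit Cox4i1 rose, with 265 and 282 CPM in irradiated against 230.4 and 231 CPM in unirradiated cells (log2 fold change 0.25, edgeR adjusted p = 2.43e-11). Its lung form Cox4i2 had 12 and 7 against 2 counts in each unirradiated library.

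Complex V, ATP synthase, fell in 11 of 16 nuclear members and rose in 0. Their summed level was 2666 and 2632 CPM in irradiated and 3495 and 3506 CPM in unirradiated libraries. These counts and the sum leave out Usmg5, a subunit whose symbol the naming rule misses. Usmg5 did not pass (log2 fold change -0.18, edgeR adjusted p = 0.0545). In the catalytic F1 head, Atp5a1 (chromosome 18, 77773729 to 77782869), the alpha subunit, had 368 and 367 CPM with irradiation and 612 and 610.3 CPM without it. Its fall was 1.66-fold (log2 fold change -0.73, SE 0.03, edgeR adjusted p = 2.73e-131). Atp5b, the beta subunit that makes ATP, had 868 and 860 CPM in irradiated and 1160 and 1179 CPM in unirradiated cells (-0.44, SE 0.02, adjusted p = 6.66e-71). Atp5c1, the central shaft, fell less (-0.23, adjusted p = 5.93e-09), and Atp5e, the smallest head subunit, had 0.00 (SE 0.08, adjusted p = 0.996). Per kilobase of exon, Atp5b averaged 204 CPM per kb in irradiated and 276 CPM per kb in unirradiated cells, and Cox6a1, the ubiquitous form of complex IV subunit 6a, averaged 217 CPM per kb in irradiated and 241 CPM per kb in unirradiated cells.

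The 3 genes of the membrane c ring encode the same mature protein, and each fell. Atp5g2 had 93.4 and 89.0 CPM in irradiated and 153 and 148 CPM in unirradiated cells (log2 fold change -0.72, edgeR adjusted p = 3.75e-50), against log2 fold changes of -0.51 for Atp5g1 and -0.36 for Atp5g3. In the peripheral stalk, which holds the head still, 3 of 4 fell (median -0.16). Of the 4 small membrane subunits counted here, 1 fell (median -0.11). These divisions of complex V were made after the values were seen, and the differences between them were not tested.

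The iron-sulphur subunits were also grouped after the values were seen. All 7 nuclear members that bind such clusters (Ndufs1, Ndufs7, Ndufs8, Ndufv1, Ndufv2, Sdhb and Uqcrfs1) fell. Their median log2 fold change was -0.66, against -0.34 in the other 70 tested nuclear members, of which 47 fell, a difference that was not tested. Of the 70 without such clusters, 20 did not pass and 3 rose. Some of the 70 fell further than the median of the 7, among them Cyc1 at -1.05 and Atp5a1 at -0.73. Within the 7 the smallest fall was that of Ndufs7, at -0.29.

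The 13 mitochondrial genes did not move as a block. Ordered along the genome, mt-Nd1 and mt-Nd2, the messages nearest the ribosomal RNA genes, fell. Mt-Co1 and mt-Co2 rose slightly, and mt-Nd4, mt-Nd5, mt-Nd6 and mt-Cytb, at the far end, rose more. Mt-Nd1 (chromosome M, 2751 to 3707), a membrane subunit of complex I, had 2571 and 2527 CPM in irradiated cells and 3293 and 3432 CPM in unirradiated cells (log2 fold change -0.40, SE 0.02, edgeR adjusted p = 3.92e-98). Mt-Nd2 (3914 to 4951), its neighbour, had 1313 and 1282 CPM against 1556 and 1638 CPM in unirradiated libraries (-0.30, adjusted p = 3.52e-40). In both genes the irradiated libraries are the lower ones.

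At the other end, mt-Cytb (14145 to 15288), the single mitochondrial subunit of complex III, had 3313 and 3244 CPM in irradiated cells and 2565 and 2663 CPM in unirradiated cells (log2 fold change 0.33, SE 0.02, edgeR adjusted p = 5.08e-66). Mt-Nd5 (11742 to 13565) had 2929.6 and 2896 CPM with irradiation and 2262 and 2355 CPM without it (0.34, adjusted p = 7.49e-66), and mt-Nd4 (10167 to 11544) had nearly the same change (0.34, adjusted p = 1.80e-50). Both encode proton-pumping subunits of complex I. Mt-Nd6, on the opposite strand, had 833 and 829 CPM in irradiated and 594 and 649 CPM in unirradiated libraries (0.42, adjusted p = 5.07e-55). No source used here says whether counting used strand, so reads of mt-Nd6 and of RNA antisense to it cannot be told apart.

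Of the catalytic subunits of complex IV, mt-Co1 (5328 to 6872) was the most abundant of all members, with 11192 and 10924 CPM in irradiated and 9896 and 10323 CPM in unirradiated cells. Its change was small (log2 fold change 0.13, SE 0.01, edgeR adjusted p = 3.28e-19). Mt-Co2 changed as little (0.13, SE 0.04, adjusted p = 0.00505) and is lost without unirradiated replicate 1 (adjusted p = 0.116) or irradiated replicate 2 (0.0879). Mt-Co3 passed at 0.43 (adjusted p = 0.000234), but its levels overlap between the groups, with 17.5 and 27.9 CPM in irradiated and 17.6 and 16.0 CPM in unirradiated cells. Without irradiated replicate 2 its log2 fold change was 0.06 (adjusted p = 0.754).

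There were 5 mitochondrial genes with means under 100 CPM, far below their neighbours. Mt-Atp6, the proton channel of ATP synthase, had 315 and 323 counts in irradiated and 279 and 267 in unirradiated libraries (log2 fold change 0.24, edgeR adjusted p = 0.164). Mt-Atp8, mt-Nd3 and mt-Nd4l had at most 52 counts in any library and did not pass, with log2 fold changes of -0.26, 0.93 and 0.20. All 5, mt-Co3 included, lie next to each other between mt-Co2 and mt-Nd4. Mt-Co2, beside them, averaged 235 CPM per kb in irradiated and 215 CPM per kb in unirradiated cells. Mt-Co1 averaged 7157 CPM per kb in irradiated and 6543 CPM per kb in unirradiated cells. The count table also holds 10 nuclear genes listed as copies of mitochondrial DNA. Gm10925, on chromosome 1, had 1399 and 1344 counts in irradiated and 1183 and 1397 in unirradiated cells, more than mt-Atp6 in each library. The handling of reads that match several places is unstated in those sources. The levels of these 5 genes and of mt-Co2 are therefore uncertain.

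**Figure D3:**
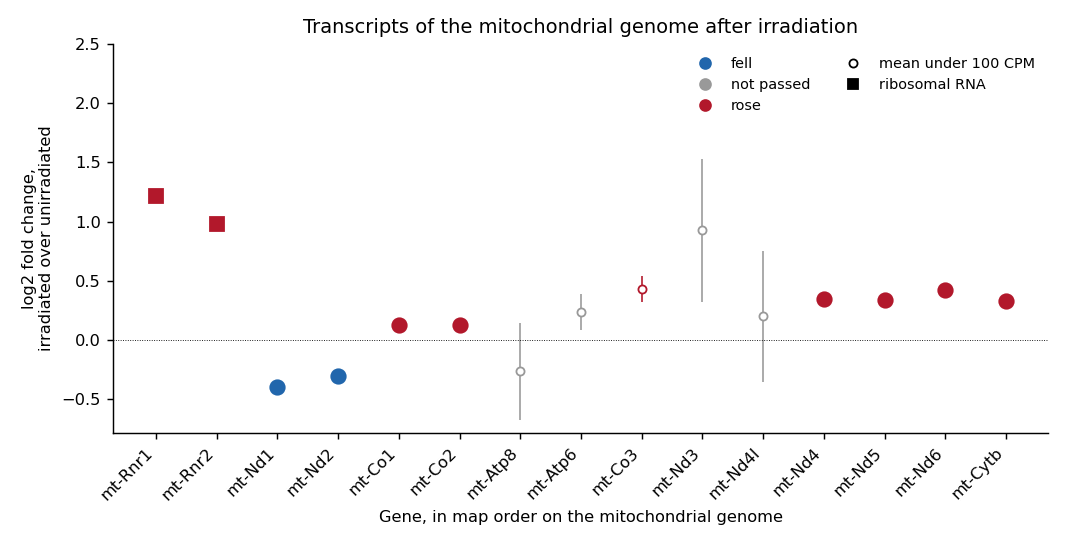
Log2 fold change (irradiated over unirradiated) with standard error of 13 protein genes and 2 ribosomal RNA genes, in map order on the mitochondrial genome, with open symbols for means under 100 CPM. Mt-Nd1 and mt-Nd2 lie at -0.40 and -0.30, and mt-Nd4 to mt-Cytb between 0.33 and 0.42.

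Ratios of mitochondrial genes within a library do not depend on how libraries are scaled. Counts of mt-Cytb over mt-Nd1 were 1.29 and 1.28 in irradiated cells and 0.779 and 0.776 in unirradiated cells. For mt-Nd5 over mt-Nd1 they were 1.14 and 1.15 in irradiated against 0.687 and 0.686 in unirradiated cells, and for mt-Co1 over mt-Nd1 4.35 and 4.32 against 3.01 in each unirradiated library. By contrast, mt-Nd5 over mt-Cytb was 0.884 and 0.893 in irradiated and 0.882 and 0.884 in unirradiated cells. These ratios were chosen after the values were seen. Each has the smallest exact two-sided permutation p that the design allows, 0.333.

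The 2 mitochondrial ribosomal RNAs, which are no members, rose more than any message tested here from that genome with at least 100 CPM. Mt-Rnr1 had 568 and 630 CPM in irradiated against 260.0 and 257 CPM in unirradiated cells (log2 fold change 1.21, SE 0.03, edgeR adjusted p = 4.29e-314). Mt-Rnr2, which lies just before mt-Nd1, had 959 and 1064 CPM against 495 and 529 CPM in unirradiated cells (0.98, SE 0.03, adjusted p = 2.19e-112). No source used here says how RNA was enriched before sequencing. Mt-Rnr2 over mt-Nd1 was 0.373 and 0.421 in irradiated and 0.150 and 0.154 in unirradiated libraries.

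Genes that work with the chain were read from lists of known roles. As background for these lists, 30.3% of all genes tested fell and 30.4% rose. Among genes with a mean of 20 to 1000 CPM, 45.2% fell and 29.6% rose. The list of pyruvate dehydrogenase and the citric acid cycle, which feeds electrons to complexes I and II, fell in 18 of 19 genes and rose in 1 (median log2 fold change -0.49). Idh3a, the catalytic subunit of isocitrate dehydrogenase, had 71.0 and 68.9 CPM in irradiated and 134 and 133 CPM in unirradiated cells (-0.93, edgeR adjusted p = 4.83e-71). The gene that rose was Pcx, pyruvate carboxylase, which refills the cycle, with 43.4 and 40.8 CPM against 19.8 and 19.2 CPM in unirradiated cells (1.11, adjusted p = 4.97e-34). Electron carriers and coenzyme Q synthesis fell in 12 of 19 and rose in 3 (median -0.30), or rose in 1 without unirradiated replicate 1. In that list Coq7, a hydroxylase of coenzyme Q synthesis, had 4.70 and 4.41 CPM in irradiated and 12.4 and 12.6 CPM in unirradiated cells (-1.46, adjusted p = 1.77e-16). Coq8a, a kinase-like protein that supports the same pathway, rose, with 8.23 and 8.97 CPM against 1.64 and 2.36 CPM in unirradiated cells (2.10, adjusted p = 2.21e-19).

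Lists of assembly factors, which build the complexes without staying in them, fell in 12 of 19 genes for complex I and rose in 2. The complex I list also holds other complex I proteins outside the naming rule, and the complex V list also holds the inhibitor Atpif1. The lists fell in 7 of 10 genes for complexes II and III, with 1 higher, and in 3 of 5 for complex V. For complex IV 7 of 19 fell, with 1 higher. That share lies between the 30.3% of all genes tested that fell and the 45.2% of those with a mean of 20 to 1000 CPM. Without unirradiated replicate 1 only 4 of the factors for complexes II and III fell and 0 of those for complex IV rose, and without irradiated replicate 2 only 1 of those for complex V fell. With library totals in place of TMM, 2 of those for complex IV rose. Ndufaf4, a complex I assembly factor, had 7.26 and 9.61 CPM in irradiated and 21.1 and 20.9 CPM in unirradiated cells (log2 fold change -1.32, edgeR adjusted p = 6.56e-23). Ndufaf8 (-1.01), the complex III factors Uqcc2 (-0.94) and Lyrm7 (-0.52), the haem A enzyme Cox10 (-0.88), the copper chaperone Cox11 (-0.65), and Fmc1 (-0.998), an ATP synthase factor, fell too, as did the ATP synthase inhibitor Atpif1 (-0.27).

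**Figure D4:**
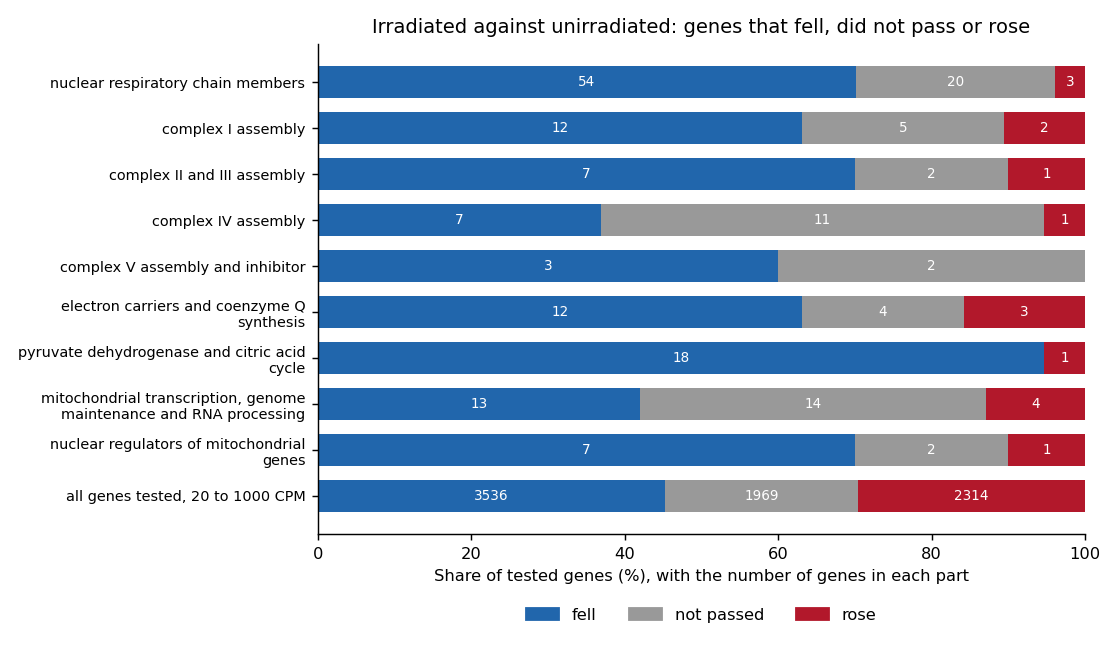
Share of tested genes that fell, did not pass or rose in irradiated against unirradiated cells, for nuclear members, 8 lists of related genes and all genes with a mean of 20 to 1000 CPM, with gene numbers in the bars. The citric acid cycle list has 18 of 19 lower, against 3536 of 7819 genes in that range.

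Machinery for the mitochondrial genome itself was mixed, with 13 of 31 lower, 4 higher and 14 that did not pass (median log2 fold change -0.18). The share that fell lies between the 30.3% of all genes tested and the 45.2% of those with a mean of 20 to 1000 CPM. Elac2, which cuts tRNAs out of mitochondrial precursor RNA, had 39.0 and 38.5 CPM in irradiated and 71.6 and 71.2 CPM in unirradiated cells (-0.88, edgeR adjusted p = 2.88e-40). Fastkd1, an RNA-binding protein of mitochondria, fell by 0.79 on the log2 scale. The main transcription proteins did not pass, Tfam with 0.02 and the polymerase Polrmt with -0.12 (chosen after their values were seen). The count of 4 that rose became 2 without unirradiated replicate 1, without irradiated replicate 1 or without irradiated replicate 2.

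Of 10 tested nuclear regulators of mitochondrial genes, 7 fell and 1 rose (median log2 fold change -0.50). As background, 30.3% of all genes tested fell, and 45.2% of those with a mean of 20 to 1000 CPM. Pprc1, a coactivator of the PGC-1 family, had 63.5 and 62.9 CPM in irradiated and 133 and 129 CPM in unirradiated cells (-1.05, edgeR adjusted p = 7.24e-87). Nrf1, a factor that binds promoters of respiratory genes, had 25.4 and 28.1 CPM against 47.2 and 54.0 CPM in unirradiated cells (-0.92, adjusted p = 2.42e-30). Gabpa and Gabpb1, which form an ETS-type factor known for the same promoters, had log2 fold changes of -0.38 and -0.62, and Yy1 did not pass (-0.04, adjusted p = 0.451). The gene that rose, Nfe2l2, encodes the antioxidant regulator NRF2 (0.69). Ppargc1a had 1 and 4 counts in irradiated and 0 in both unirradiated libraries. Gabpa to Nfe2l2 and Ppargc1a were named after their values were seen.

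Promoters are shown for the nuclear members with the lowest and highest fold changes at 5 CPM or more that matched by symbol in the RefSeq promoter table (GRCm38.p6), since the factors above are known to bind such windows. Each runs 5′ to 3′ on the gene's strand from 250 bases before to 50 after the start, with capitals on matches, on either strand, to GCGCATGC (NRF1), CCGGAAG (ETS) or AAGATGGC (YY1). The sites are chr19:3912725-3913024 (minus) for Ndufs8, chr4:140961021-140961320 (plus) for Sdhb, chr17:31519865-31520164 (plus) for Ndufv3 and chr17:83514284-83514583 (minus) for Cox7a2l.
Ndufs8: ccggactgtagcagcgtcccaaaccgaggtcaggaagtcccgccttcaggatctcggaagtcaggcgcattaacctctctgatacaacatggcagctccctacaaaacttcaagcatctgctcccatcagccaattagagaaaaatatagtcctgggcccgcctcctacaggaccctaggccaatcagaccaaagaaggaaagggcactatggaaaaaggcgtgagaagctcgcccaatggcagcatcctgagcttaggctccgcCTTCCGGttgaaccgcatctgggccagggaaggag
Sdhb: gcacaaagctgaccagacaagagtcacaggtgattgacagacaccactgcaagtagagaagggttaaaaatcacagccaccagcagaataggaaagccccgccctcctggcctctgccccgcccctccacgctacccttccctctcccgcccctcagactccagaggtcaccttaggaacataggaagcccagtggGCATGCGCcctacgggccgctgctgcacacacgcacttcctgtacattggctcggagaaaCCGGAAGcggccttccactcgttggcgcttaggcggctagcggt
Ndufv3: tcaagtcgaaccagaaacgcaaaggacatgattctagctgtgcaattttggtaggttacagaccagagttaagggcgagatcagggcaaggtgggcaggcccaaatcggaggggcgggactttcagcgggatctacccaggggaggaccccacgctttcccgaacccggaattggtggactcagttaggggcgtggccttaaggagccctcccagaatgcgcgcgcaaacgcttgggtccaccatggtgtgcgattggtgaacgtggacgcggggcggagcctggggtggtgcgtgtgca
Cox7a2l: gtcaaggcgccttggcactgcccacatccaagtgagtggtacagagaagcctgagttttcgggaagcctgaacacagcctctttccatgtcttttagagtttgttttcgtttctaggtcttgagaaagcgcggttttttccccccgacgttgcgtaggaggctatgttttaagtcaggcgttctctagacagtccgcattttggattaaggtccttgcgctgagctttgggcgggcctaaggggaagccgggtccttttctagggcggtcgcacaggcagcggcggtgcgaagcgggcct

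In these windows Ndufs8, which fell, has an ETS match and Sdhb, which fell, has an NRF1 and an ETS match, while none of the 3 motifs was found in those of Ndufv3 and Cox7a2l, which rose. Of the 80 nuclear members, 64 had a promoter in the table. The NRF1 letters were found in 15.6% of them, against 3.05% of all 27025 genes with a promoter and 5.80% of the tested ones. The ETS letters were in 16 of the 64, against 9.93% and 19.7%, and the YY1 letters in 14.1%, against 3.19% and 5.17%. The end of the ETS letters equals the start of the YY1 letters, so overlapping bases can count for both. Among members, NRF1 letters were in 15.6% of the 45 that fell and 15.8% of the other 19, and ETS letters were in 9 of the 45 and 7 of the 19. YY1 letters were in 7 of the 45 and 2 of the 19. A match is a run of letters, not a bound site.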

How the data were processed

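The authors deposited raw counts: whole numbers for each Ensembl gene in each of the 4 libraries, not normalised or pooled. Per the submitters' processing notes the tools were HTSeq, HISAT2, HISAT and DESeq2 and the build mm10, with neither roles nor versions. Not given in the sources used here are the annotation release, the strand setting and the handling of multiply matching reads. Symbols, coordinates and exon lengths came from GENCODE M21 (GRCm38, the build of mm10), and 26372 of the 26561 identifiers matched. Titles gave groups and replicate numbers. For unirradiated replicate 2 the description names the other unirradiated sample, so its title, which matches the column, was used.

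Counts were tested with edgeR 4.0.16 in R 4.3.3 (TMM, filterByExpr, glmQLFit with robust estimation, glmQLFTest, irradiation as the single term), with Benjamini-Hochberg adjustment over 15298 genes. A gene rose or fell where adjusted p was under 0.05. Standard errors are the absolute log2 fold change over the square root of F. For 90.0% of genes the estimated prior degrees of freedom were infinite, so their spread came from the trend over genes. Replicates were distinct beyond counting error (mean chi-square per gene 4.73 in irradiated and 3.38 in unirradiated libraries, where sampling gives 1). The fit was also run on counts simulated from the means and dispersion trend estimated here. That run checks the code, and it cannot test the spread assumed for these 4 libraries. CPM per kb divides by the union of annotated exons. DESeq2 1.42.0 served as an alternative.

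Ndufa4 and Ndufa4l2 were placed in complex IV and Atp5s in no complex. Named were all mitochondrial genes, per complex the 3 that rose and the 3 that fell most (mean of at least 5 CPM, separated libraries), core subunits, paralog pairs, untested members and the 2 most changed genes per list. The members, lists and rules were chosen with earlier results of these data known. Exons of 28 nuclear members overlap another gene, which for 14 holds over 10% as many counts. Some genes that this rule names are not reported here.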

Additional observations from a re-analysis of the deposited data

How the results depend on the processing

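Of 517 refits of named genes, 506 kept direction and side of the threshold and 11 lost the call. Of those 11, 10 are given in the results (Cox5b 4, Ndufb2 2, mt-Co2 2, Cox6a1 1 and mt-Co3 1), and the other is mt-Co3 by DESeq2 (adjusted p = 0.266). Nuclear members that fell numbered 47 to 53 with 1 library left out and 49 to 54 under the other settings, and mitochondrial genes that rose 5 to 7. With library totals and no TMM factor, 5 nuclear members rose, 2 in complex I and 1 in complex III, and the medians were -0.30 for nuclear members and -0.36, -0.15, -0.50, -0.19 and -0.17 for complexes I to V. With no filter on low counts they were -0.37 for nuclear members, -0.23 for complex II, -0.35 for complex IV and -0.25 for complex V, and the median of all genes was 0.22 against 0.01. DESeq2, or its size factors in edgeR, gave -0.20 for complex II. Leaving out 1 library, complex III members that rose numbered 0 to 1, and medians ran from -0.38 to -0.37 for nuclear members, 0.14 to 0.31 for mitochondrial genes, -0.44 to -0.41 for complex I, -0.23 to -0.20 for complex II, -0.64 to -0.53 for complex III, -0.24 to -0.20 for complex IV and -0.26 to -0.22 for complex V. The log2 ratio of mitochondrial to nuclear counts, from sums, was 0.46 higher in irradiated cells. The difference of median log2 CPM over genes, mitochondrial minus nuclear, was 0.76 higher. In each library that mitochondrial median is the level of mt-Nd6, whose log2 fold change was 0.42. The cause of these shifts was not tested. Lists of related genes changed their counts by over 1.5 times in 10 cases, among them complex IV assembly factors that rose (2 with library totals, 0 without unirradiated replicate 1), coenzyme Q and carrier genes that rose (1 without unirradiated replicate 1) and other mitochondrial RNAs and copies that rose (5, but 3 without unirradiated replicate 1 or irradiated replicate 2). Same-numbered libraries are labelled as sharing only a number, and the correlation of their deviations from the group means was -0.01. With 2 libraries per group, that correlation cannot show whether they shared a culture or a day. With the replicate block 54 nuclear members fell and 3 rose, 7 mitochondrial genes rose and 2 fell, and over all genes 4507 rose and 4519 fell.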

Other observations

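Across the 76 nuclear members tested with a mean of at least 5 CPM, the log2 fold change was hardly related to the level in unirradiated libraries (Spearman rho -0.06) or to exon length (rho -0.12). These are descriptions across genes that share the same 4 libraries. Of the 10 nuclear copies of mitochondrial DNA, Gm28437 had 871 and 1608 counts in irradiated and 813 and 974 in unirradiated libraries, so that irradiated replicate 2 stands apart there as it does for mt-Co3. Atp5s, which has the name of ATP synthase but is counted in no complex here, had a log2 fold change of 0.05 (edgeR adjusted p = 0.801).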
